A study of Mus musculus with 12 samples.

Results

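Tcf21, Nr2f1 and Nr2f2 are 3 genes of transcription factors, and their RNA was followed over 4 groups of mouse fat cells. Every probe set (a group of short probes read together as 1 value) whose only gene symbol in the array annotation was 1 of these was taken. These 3 of the 8251 named genes had 4 of the 12422 probe sets, and 3 of the 4 passed the filter on dim signals, as did 8695 of all. Tcf21 (Entrez Gene 21412) and Nr2f1 (13865) have 1 probe set each and Nr2f2 (11819) has a bright and a dim one. The genes were picked on their signals in these same arrays, which were known to differ between the fat depots. All their differences between depots and between fractions are therefore a description, given without a test. Tcf21 passed the filter only through its signal in intraabdominal stromo-vascular cells.

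Male C57BL/6 mice, an inbred laboratory strain, were 42 to 49 days old, and the labels name no transgene or treatment. Intraabdominal fat was the epididymal pad and subcutaneous fat came from the flank. Tissue of 10 mice was pooled by depot and digested with collagenase, and each depot was split into stromo-vascular cells and floating adipocytes. The 4 groups of 3 arrays were thus intraabdominal and subcutaneous stromo-vascular cells, and intraabdominal and subcutaneous adipocytes. The stromo-vascular fraction is what sinks in the centrifuge: precursors of fat cells, fibroblasts, and cells of vessels and of the immune system. It was kept on plates for 16 h before RNA was taken, whereas adipocytes were not plated, so fraction and culture cannot be told apart. The labels do not say that the 3 arrays of a group came from separate pools, and p-values then measure only the spread between these samples, which may be technical.

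TCF21 is a basic helix-loop-helix protein of mesoderm. It pairs with an E protein and binds short DNA elements called E-boxes, and it is known from the development of the lung, kidney, spleen and heart surface and as a gene of visceral fat precursors. NR2F1 and NR2F2, also called COUP-TFI and COUP-TFII, are orphan nuclear receptors that bind repeats of the AGGTCA motif, often as repressors. NR2F2 is known for setting the identity of veins and for acting in the mesenchyme of many organs, and both receptors respond to retinoic acid.

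The DNA just before each start site is shown here because all 3 genes had their highest signal in the same group. Each line is the 250 bases before the start of the gene in RefSeq (GRCm38.p6), 5′ to 3′ along the gene, and capitals mark an E-box (CANNTG) or a GATA site (AGATAA or TTATCT).
Tcf21, chr10:22820144-22820393, minus strand: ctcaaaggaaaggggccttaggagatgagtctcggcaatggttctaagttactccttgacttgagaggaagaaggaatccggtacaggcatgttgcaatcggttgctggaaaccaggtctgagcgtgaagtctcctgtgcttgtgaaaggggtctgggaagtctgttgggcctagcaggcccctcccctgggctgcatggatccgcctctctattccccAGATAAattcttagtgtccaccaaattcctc
Nr2f1, chr13:78198874-78199123, minus strand: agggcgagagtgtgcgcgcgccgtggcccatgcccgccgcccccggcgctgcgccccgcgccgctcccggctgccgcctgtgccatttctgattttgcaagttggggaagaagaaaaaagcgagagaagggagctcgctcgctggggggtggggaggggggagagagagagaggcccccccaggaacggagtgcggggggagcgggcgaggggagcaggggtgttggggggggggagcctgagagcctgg
Nr2f2, chr7:70366747-70366996, minus strand: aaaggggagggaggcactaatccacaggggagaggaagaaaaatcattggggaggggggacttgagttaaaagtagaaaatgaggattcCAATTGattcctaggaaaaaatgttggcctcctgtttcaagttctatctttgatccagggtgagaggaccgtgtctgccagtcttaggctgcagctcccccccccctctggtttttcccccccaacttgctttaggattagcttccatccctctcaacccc
The Tcf21 stretch held 1 GATA site, AGATAA, its first base at position -31 from the start site, and 0 E-boxes. The Nr2f2 stretch held 1 E-box, CAATTG, at position -161, and the Nr2f1 stretch shown neither motif. Among 32851 stretches of this length before mouse start sites 66.2% held an E-box and 9.99% a GATA site. The receptor half-site AGGTCA or its complement TGACCT was in 0 of the 3 and in 14.0% of all. The E-box CAGCTG, a form bound by TCF21, was likewise in 0 of the 3 and in 13% of all. Letters C and G made up 52.4% of the Tcf21, 72.0% of the Nr2f1 and 50.0% of the Nr2f2 stretch, against a median of 52.4%. A second Nr2f1 start site in RefSeq, whose stretch is not shown, has 2 E-boxes before it (CAATTG and CAGATG). The motifs were picked after these stretches had been read, both strands were searched, and a match is a description of letters and not a bound site.

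Tcf21 was by far highest in intraabdominal stromo-vascular cells. Its probe set (103050_at) read a signal of 3319.91, 3587 and 3502 on the 3 intraabdominal stromo-vascular arrays, against 49.7, 50.2 and 50.7 on the subcutaneous ones. The first group lay high among all probe sets of its arrays and the second near the bottom. The lowest and highest percentile among all probe sets of an array were 85.9 and 86.8 in intraabdominal and 11.2 and 13.2 in subcutaneous stromo-vascular cells. The group means were 3469.65 ± 136 and 50.2 ± 0.488 (SD, n = 3 each), a ratio of 69.2. On the scale of the fit, log2 of the signal plus 40.09, the difference was 5.28 ± 0.33 (SE). That scale understates ratios of dim signals, and here it gave 38.9-fold. Tcf21 ranked 3 of 8695 by this difference. The files used here hold no detection calls, so whether a signal near 50.2 lay above background was not tested. In bulk samples fewer cells of a type and less RNA per cell cannot be told apart.

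In adipocytes Tcf21 lay between the 37.9 and 50.6 percentile of all probe sets in the intraabdominal group and between 14.0 and 24.9 in the subcutaneous group. It read 227, 438 and 294 in intraabdominal adipocytes, against 174, 87.4 and 57.9 in subcutaneous adipocytes. The depots did not overlap, but the highest subcutaneous array lay close under the lowest intraabdominal one. The log2 difference was 1.33 ± 0.33 (SE), or 2.52-fold, rank 73 of 8695. The depot difference in stromo-vascular cells exceeded that in adipocytes by 3.95 ± 0.47 (log2, SE). No group overlapped another, and the order of levels was intraabdominal stromo-vascular cells, intraabdominal adipocytes, subcutaneous adipocytes and subcutaneous stromo-vascular cells. The fractions thus stood in opposite order in the 2 depots. Stromo-vascular cells were 10.0-fold above adipocytes in intraabdominal fat (log2 3.33 ± 0.33), whereas the log2 difference in subcutaneous fat was -0.62 ± 0.33.

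Nr2f1 was higher in intraabdominal fat in both fractions and by about the same log2 difference. Its probe set (102715_at) read 1452, 1322 and 1376 in intraabdominal stromo-vascular cells, against 407, 267 and 195 in subcutaneous ones. The means of 1383 ± 65.1 and 289.9 ± 108 (SD, n = 3 each) gave a log2 difference of 2.16 ± 0.42 (SE), or 4.46-fold, rank 54. In adipocytes it read 567, 447 and 639.96 on the intraabdominal arrays, against 51.9, 222 and 29.5 on the subcutaneous ones. Subcutaneous adipocyte array 2 stood well above the other two of its group and still below every intraabdominal array. The log2 difference was 2.30 ± 0.42 (SE), or 4.93-fold, rank 5 of 8695, and it ran from 1.92 to 2.87 as each array was left out. The subcutaneous adipocyte arrays lay between the 6.79 and 31.6 percentile of all probe sets, and whether such signals lay above background was not tested. The size of this difference depends on the pseudocount: it was 2.53 with the 5th and 1.88 with the 20th percentile.

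The difference between these depot differences was -0.14 ± 0.59 (log2, SE), smaller than its error. Its sign turned without subcutaneous stromo-vascular array 1 (0.10) and without subcutaneous adipocyte array 1 (0.04) or 3 (0.24). The order of levels was intraabdominal stromo-vascular cells, intraabdominal adipocytes, subcutaneous stromo-vascular cells and subcutaneous adipocytes, and the last pair overlapped. Stromo-vascular cells were above adipocytes in both depots, by a log2 difference of 1.28 ± 0.42 in intraabdominal and 1.42 ± 0.42 in subcutaneous fat.

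Nr2f2 was higher in intraabdominal fat in stromo-vascular cells and not in adipocytes. Its bright probe set (103052_r_at) read 3867, 2629 and 3494 in intraabdominal stromo-vascular cells, against 1455, 614 and 1075 in subcutaneous ones. The 3 arrays of a group spread more than those of Tcf21, but the depots did not overlap. The means were 3329.96 ± 635 and 1048 ± 421 (SD, n = 3 each), the log2 difference was 1.69 ± 0.32 (SE), or 3.23-fold, and the rank was 108. In adipocytes Nr2f2 read 317, 465 and 362 in the intraabdominal group, against 576, 777 and 347 in the subcutaneous group. These groups overlapped, with 2 of the 9 pairs of arrays higher in intraabdominal adipocytes, and the log2 difference was -0.48 ± 0.32. The depot difference in stromo-vascular cells exceeded that in adipocytes by 2.17 ± 0.45 (log2, SE).

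For Nr2f2 the order was intraabdominal stromo-vascular cells, subcutaneous stromo-vascular cells, subcutaneous adipocytes and intraabdominal adipocytes. Subcutaneous adipocytes overlapped both subcutaneous stromo-vascular cells and intraabdominal adipocytes. Stromo-vascular cells were above adipocytes by 3.0 ± 0.32 (log2) in intraabdominal fat and 0.83 ± 0.32 in subcutaneous fat.

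The other Nr2f2 probe set (161792_f_at) did not follow the bright one. It read 9.34, 57.5 and 24.2 in intraabdominal and 5.09, 36.7 and 24.9 in subcutaneous stromo-vascular cells. It read 3.06, 4.36 and 8.45 in intraabdominal and 235, 112 and 6.8 in subcutaneous adipocytes. These signals were mostly under the pseudocount, the set failed the filter, and its log2 depot differences were 0.15 ± 0.49 in stromo-vascular cells and -1.47 ± 0.49 in adipocytes. In Affymetrix names the suffix _f_at marks a probe set whose probes can match several related sequences, and _r_at a set chosen with relaxed design rules. Every Nr2f2 value below is that of the bright set.

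**Figure D1:**
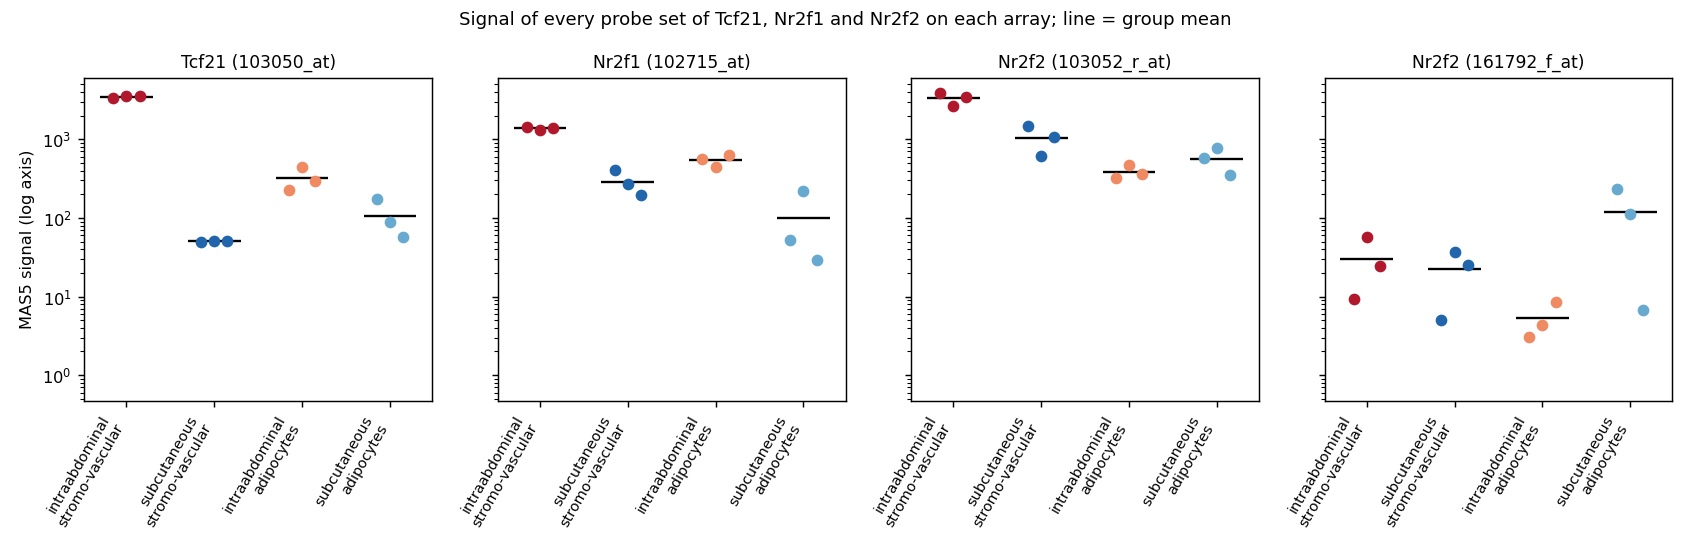
MAS5 signal on a log axis for each probe set, with 1 point per array (3 per group) and a line at the group mean. The 3 Tcf21 arrays of intraabdominal stromo-vascular cells sit together above 3000 and the subcutaneous ones near 50.2, while the dim Nr2f2 set scatters at the bottom of the scale.

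**Figure D2:**
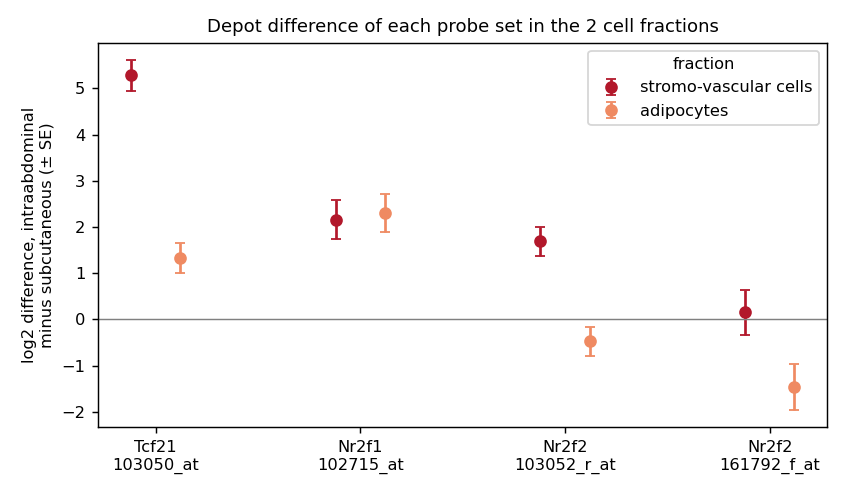
The log2 difference (± SE) of intraabdominal minus subcutaneous cells for each probe set, in stromo-vascular cells and in adipocytes. Nr2f1 shows about the same difference in both fractions, Tcf21 a larger one in stromo-vascular cells, and the bright Nr2f2 set one above 0 in stromo-vascular cells only.

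Across all 8695 probe sets, 12.9% were called (limma, Benjamini-Hochberg adjusted p under 0.05) between depots in stromo-vascular cells and 8.13% in adipocytes. In stromo-vascular cells 6.45% were higher and 6.49% lower in the intraabdominal depot, and in adipocytes 4.16% higher and 3.97% lower. For the difference between the depot differences 8.43% were called, 3.9% above and 4.53% below 0. Over all of them the median log2 difference was -0.06 in stromo-vascular cells and -0.07 in adipocytes.

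Averaged over both depots, all 3 genes read higher in stromo-vascular cells than in adipocytes. The log2 difference was 1.35 ± 0.23 for Tcf21, 1.35 ± 0.29 for Nr2f1 and 1.91 ± 0.22 for Nr2f2 (SE). These averages include the high signal in intraabdominal stromo-vascular cells that the 3 genes share. They are 2.55-fold for Tcf21, 2.55-fold for Nr2f1 and 3.76-fold for Nr2f2. Of all probe sets 62.4% were called in this comparison, 34.7% as higher and 27.6% as lower in stromo-vascular cells. For Tcf21 the average joins differences of opposite sign in the 2 depots.

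RNA quality moved with fraction and, within adipocytes, with depot. The 3′ over 5′ signal ratio of actin, a measure that grows as RNA is degraded, ran from 1.11 to 1.21 in intraabdominal and from 1.2 to 1.24 in subcutaneous stromo-vascular cells. It ran from 1.71 to 2.24 in intraabdominal and from 2.35 to 3.10 in subcutaneous adipocytes. The adipocyte depots did not overlap in it, so depot and RNA quality cannot be told apart there. With this ratio as a covariate 1586 probe sets were called between fractions in place of 5422. The average log2 fraction differences then were 3.05 ± 0.80 for Tcf21, 2.67 ± 1.14 for Nr2f1 and 3.70 ± 0.75 for Nr2f2 (SE), each larger and less precise. With it the log2 difference between the fractions of subcutaneous fat was 1.43 for Tcf21, of the other sign. The depot differences in adipocytes then were 2.15 for Tcf21, 2.93 for Nr2f1 and 0.38 for Nr2f2 (log2), the last with its sign turned.

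Markers of other cell types moved with the depot in stromo-vascular cells, where 12.9% of all probe sets were called. All 6 tested mesothelial markers (8 of 10 on the array) were higher in intraabdominal stromo-vascular cells, with a median log2 difference of 2.27. Their summed signal ran from 8348 to 8599 in intraabdominal and from 1881 to 2017 in subcutaneous stromo-vascular cells. Bnc1, Krt8 and Krt18 among these markers passed the filter on dim signals only through intraabdominal stromo-vascular cells. Of 9 smooth muscle and pericyte markers (10 listed) 8 were higher, with a median of 2.07. Their sum ran from 163226 to 192940.0 in intraabdominal and from 41136 to 41879 in subcutaneous stromo-vascular cells. Of 10 macrophage markers 6 were higher and 1 lower, with sums of 29716 to 33964 in intraabdominal and 21165 to 21936 in subcutaneous cells. Of 9 endothelial markers 6 were lower, yet their sums overlapped, at 9927 to 17231 in intraabdominal and 10374 to 11949 in subcutaneous cells. The 11 preadipocyte and fibroblast markers had 1 higher (Lum) and 3 lower (Thy1, Col3a1 and Dcn), while Pdgfra and Pdgfrb were not called. This list summed to 312847 to 361436 in intraabdominal and 426472 to 464729 in subcutaneous cells, mostly from the bright genes Col1a1, Col1a2, Col3a1 and Dcn.

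In adipocytes the lists behaved differently from each other. Of all probe sets 8.13% were called between depots there, and the 11.1% of the smooth muscle and pericyte list lay near that share. The preadipocyte and fibroblast markers had 0 higher and 3 lower of 11 in intraabdominal adipocytes (median -0.502, against -0.0829 in stromo-vascular cells). The lower ones were Col1a1, Col1a2 and Col3a1. This list summed to 51496 to 58846 in intraabdominal and 67719 to 96881 in subcutaneous adipocytes. Of the mesothelial markers 0 of 6 were called (median -0.473), and their sums overlapped, at 2073 to 2758 in intraabdominal and 2084 to 3728 in subcutaneous adipocytes. Of the smooth muscle and pericyte markers 1 of 9 was higher (median 0.00155), with sums of 19238 to 21464 in intraabdominal and 11915 to 14288 in subcutaneous adipocytes. Most of the gap between these sums lay in 1 bright gene, Mylk. It averaged 13091 ± 642 in intraabdominal and 6706 ± 502 in subcutaneous adipocytes (SD, n = 3 each). Sums of 7 markers of epididymis and testis overlapped in all 4 groups, at 1707 to 3885 in intraabdominal and 2848 to 3958 in subcutaneous stromo-vascular cells. The 10 adipocyte markers summed to 16275 to 19628 in intraabdominal and 24157 to 29659 in subcutaneous stromo-vascular cells. In adipocytes they summed to 517094 to 604559 in the intraabdominal and 431766 to 507391 in the subcutaneous group. The fractions did not overlap, nor did the depots within either fraction, and the depots stood in opposite order. Of these markers 0 were higher and 3 lower (Lpl, Adipoq and Pparg) in intraabdominal stromo-vascular cells. In intraabdominal adipocytes 1 was higher (Lep) and 0 lower. No marker was listed at 0 in any group. The part of these cell types in the values of Tcf21, Nr2f1 and Nr2f2 was not tested.

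**Figure D3:**
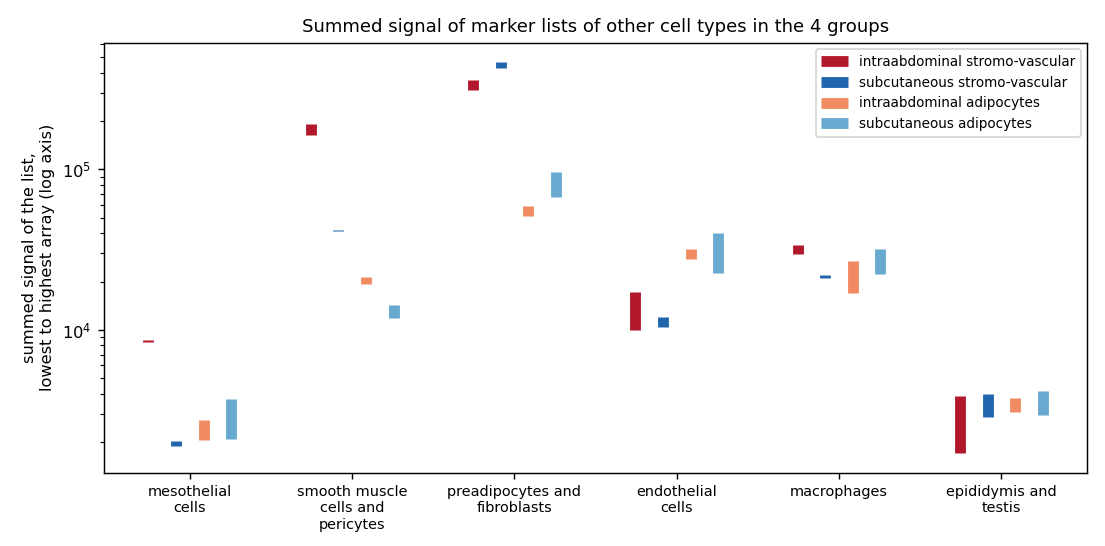
Summed MAS5 signal of each marker list on a log axis, drawn as a bar from the lowest to the highest of the 3 arrays in each of the 4 groups. Mesothelial and smooth muscle sums of intraabdominal stromo-vascular cells, 8348 to 8599 and 163226 to 192940.0, stand above those of the other 3 groups.

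The genes whose pattern over the 12 arrays was most like that of each factor were found by Pearson's r of log2 values among 6435 genes, as a description. The 12 arrays share 4 groups, so r mostly reflects group means. Closest to Tcf21 were Aldh1a3 (r = 0.967), an enzyme that makes retinoic acid, Mylk (0.962) and Myh11 (0.958), the kinase and heavy chain of smooth muscle myosin, the heparan sulfate proteoglycan Gpc4 (0.949) and the cell cycle inhibitor Cdkn2b (0.946). Mylk and Myh11 are also on the smooth muscle marker list. Aldh1a3 had a mean signal of 2577 ± 102 in intraabdominal and 96.0 ± 61.3 in subcutaneous stromo-vascular cells, while adipocytes had 211 ± 73.7 in intraabdominal and 182 ± 96.1 in subcutaneous fat (SD, n = 3 each). Like Tcf21 it was high in a single group.

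Closest to Nr2f1 were Caprin1 (r = 0.949), an RNA-binding protein, the tubulin Tubb5 (0.929) and Thbd (0.925), the thrombin-binding protein thrombomodulin. Next came the small GTPase Rac1 (0.921) and Nnt (0.92), a mitochondrial enzyme that makes NADPH. Thbd averaged 5919 ± 435 in intraabdominal and 1878 ± 258 in subcutaneous stromo-vascular cells, while adipocytes had 2245 ± 347 in intraabdominal and 861 ± 167 in subcutaneous fat. It shared with Nr2f1 a higher level in intraabdominal fat in both fractions. Closest to Nr2f2 were the amino acid transporter Slc1a4 (r = 0.965), the bHLH inhibitor Id4 (0.961), the scaffold protein Slc9a3r1 (0.957), the LIM protein Fhl2 (0.956) and Zfpm1 (0.955). Zfpm1, or FOG-1, is a zinc finger partner of GATA factors, and its relative FOG-2 is known to bind COUP-TFII.

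The 3 factors were not each other's closest match. Tcf21 and Nr2f1 had r = 0.789, and Nr2f1 ranked 85 among the genes most like Tcf21. Tcf21 and Nr2f2 had r = 0.698, and the 2 receptors r = 0.641. Nr2f1 ranked 1503 among the genes most like Nr2f2.

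**Figure D4:**
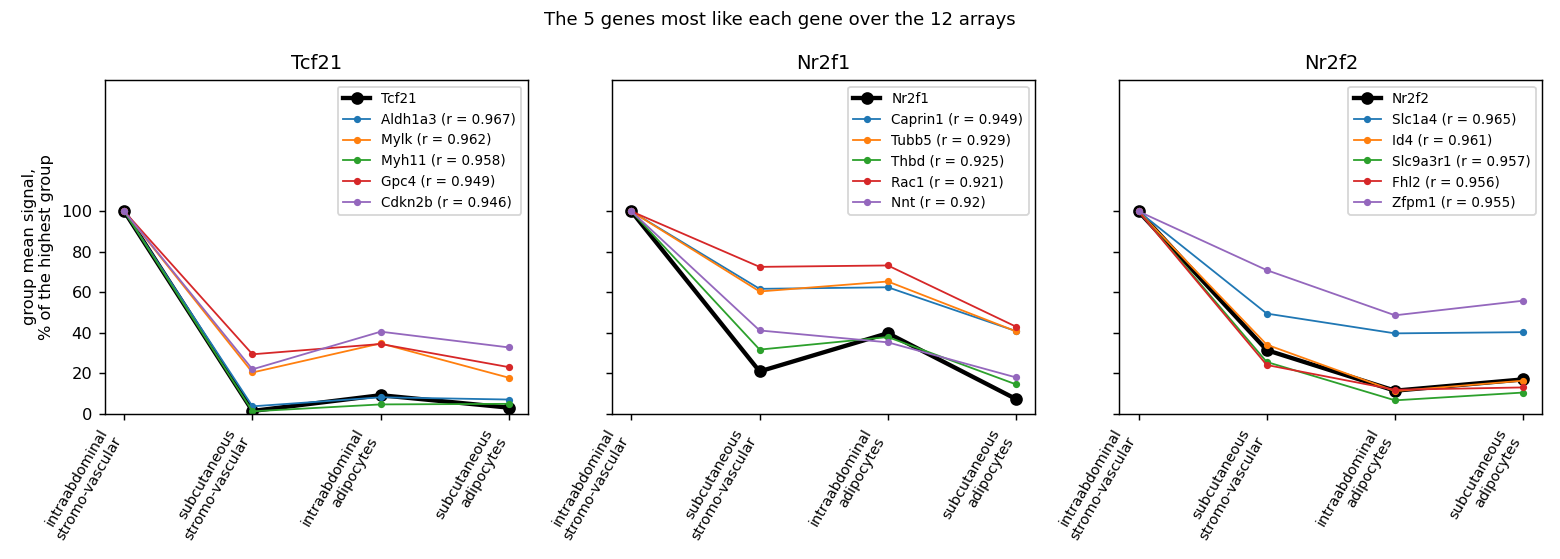
Group mean signal as a percent of the highest group for each factor (thick line) and its 5 most similar genes over the 12 arrays. Every line of the Tcf21 panel is well below its highest value in the other 3 groups, every line of the Nr2f1 panel is lowest in subcutaneous adipocytes, and the Nr2f2 panel is lower in both adipocyte groups than in either stromo-vascular group.

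Among partners of the COUP-TF receptors Zfpm2 had the largest depot difference in stromo-vascular cells. Zfpm2, or FOG-2, the corepressor known to bind NR2F2, averaged 1252 ± 111 in intraabdominal stromo-vascular cells and 120.4 ± 14.3 in subcutaneous ones (SD, n = 3 each; 8.05-fold, limma adjusted p = 0.000112). In adipocytes it read 74.1 ± 61.9 in the intraabdominal and 82.3 ± 17 in the subcutaneous group (limma adjusted p = 0.761). Like Tcf21, Zfpm2 passed the filter on dim signals only through its signal in intraabdominal stromo-vascular cells. Its p-values are to be read with that limit. Of 9 tested members (12 of 16 on the array) 1 was higher and 1 lower in intraabdominal stromo-vascular cells, with a median of 0.208 (log2). The 2 calls are 22.2% of the list, against 12.9% of all probe sets. The lower one was Rxra, a retinoid X receptor that pairs with many nuclear receptors, COUP-TFs included (1.35-fold, limma adjusted p = 0.0318). Its call was lost when any 1 of the 6 stromo-vascular arrays was left out (up to limma adjusted p = 0.10044). In adipocytes the sole call was Rxrb, another retinoid X receptor, at 2677 ± 212 in intraabdominal and 986 ± 472 in subcutaneous cells (2.88-fold, limma adjusted p = 0.00865). This 1 call is 11.1% of the list, near the 8.13% of all probe sets. With the actin ratio as a covariate the adipocyte calls of Rxrb (limma adjusted p = 0.485) and, among the genes below, Aldh1a1 (0.103), Scx (0.176), Bhlhe40 (0.0974) and Gata2 (0.572) were lost.

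Nr2f6, the remaining receptor of the COUP-TF family, is named after its values were seen. It averaged 1995 ± 382 in intraabdominal and 1634 ± 171 in subcutaneous stromo-vascular cells (log2 difference 0.27 ± 0.16, limma adjusted p = 0.328). In adipocytes it averaged 1886 ± 129 in intraabdominal and 1755 ± 94.3 in subcutaneous cells (limma adjusted p = 0.734). It was not called between fractions either (log2 difference -0.02 ± 0.11, limma adjusted p = 0.892). Between fractions 66.7% of the 9 partners were called, near the 62.4% of all probe sets. Of these partners 4 were higher in stromo-vascular cells and 2 lower. The calls were led by the histone deacetylase Hdac2 (2.55-fold, limma adjusted p = 1.61e-07) and Zfpm2 (4.05-fold, limma adjusted p = 1.74e-05), both higher. The Zfpm2 call was lost with the actin covariate (limma adjusted p = 0.575).

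Of 24 other nuclear receptors tested (36 of 46 on the array) 0 were higher and 4 lower in intraabdominal stromo-vascular cells. The 4 calls are 16.7% of the list, near the 12.9% of all probe sets, of which 6.45% were called higher, and nothing particular to the list is read from them. The median of the 24 was -0.223 (log2). Besides Rxra the lower ones were the liver X receptor Nr1h3 (1.68-fold lower, limma adjusted p = 0.00875), the thyroid hormone receptor Thra (1.44-fold lower, limma adjusted p = 0.0114) and Pparg. Pparg, the master regulator of fat cell formation and a gene reported to be repressed by NR2F2, averaged 263 ± 105 in intraabdominal and 530.5 ± 112 in subcutaneous stromo-vascular cells (1.93-fold lower, limma adjusted p = 0.0188). Leaving out 1 array ended the call of Thra in 2 cases and that of Pparg in 3, at limma adjusted p values up to 0.0561 for Thra and 0.0926 for Pparg. The Nr1h3 call was lost when only the stromo-vascular arrays entered the fit (limma adjusted p = 0.0564). Pparg is also on the adipocyte marker list, whose sums were lower in intraabdominal stromo-vascular cells. The part of adipocyte RNA in these calls was not tested.

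In adipocytes 2 receptors were higher in the intraabdominal group and 0 lower, with a median of 0.00443. These were Rxrb and Nr4a1, an early response gene (6314 ± 1250 in intraabdominal and 2002 ± 279 in subcutaneous adipocytes, 3.09-fold, limma adjusted p = 5.69e-05). The 2 calls are 8.33% of the list, near the 8.13% of all probe sets, and nothing particular to the list is read from them. Between fractions 58.3% of the 24 receptors were called, near the 62.4% of all probe sets. Of these receptors 5 were higher in stromo-vascular cells and 9 lower. The receptors with the smallest p were all lower there: Nr1h3 (14.2-fold), Pparg (8.29-fold), the clock repressor Nr1d1 (3.62-fold) and Esrra (3.43-fold), with limma adjusted p = 3.36e-09 for the last.

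Among the dimer partners of bHLH factors 2 of 7 tested genes, both Id inhibitors, were higher in intraabdominal stromo-vascular cells. The 2 calls are 28.6% of the list, against 12.9% of all probe sets. Id proteins bind E proteins and keep them off DNA. Id4 averaged 2153 ± 16.1 in intraabdominal and 735.5 ± 182 in subcutaneous stromo-vascular cells (2.88-fold, limma adjusted p = 0.000403), and Id1 2578 ± 287 in intraabdominal and 871 ± 33.4 in subcutaneous ones (2.86-fold, limma adjusted p = 0.00499). In adipocytes 0 of 7 were called, against 8.13% of all probe sets, with a median of -0.0207. Between fractions Id4 (3.92-fold), Id2 (3.43-fold) and the E protein Tcf12 (1.66-fold) were higher in stromo-vascular cells, while Tcf4 and Id3 were lower (1.39-fold for Tcf4, 1.33-fold for Id3). The 5 calls are 71.4% of the list, near the 62.4% of all probe sets. With the actin ratio as a covariate the calls of Id2 (limma adjusted p = 0.0564) and Tcf12 (0.234) were lost and the sign of Tcf4 turned.

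Of 13 other bHLH factors of mesenchyme tested (19 of 27 on the array) 0 were higher in intraabdominal stromo-vascular cells and 2 lower, with a median of -0.355. The 2 calls are 15.4% of the list, against 12.9% of all probe sets. Twist2, a repressor of mesenchymal differentiation, averaged 1522 ± 346 in intraabdominal and 3529 ± 572 in subcutaneous cells (2.30-fold lower, limma adjusted p = 0.00637). The other was Bhlhe40, a clock and stress factor (1.40-fold lower, limma adjusted p = 0.0394), whose call was lost in 6 of the 12 fits without 1 array (up to limma adjusted p = 0.187). In adipocytes 0 were higher and 2 lower, with a median of -0.70. These 2 calls are again 15.4% of the list, against 8.13% of all probe sets. Scx, a tendon cell factor, averaged 306 ± 262 in intraabdominal and 2077 ± 734 in subcutaneous adipocytes (7.03-fold lower, limma adjusted p = 0.00247), and Bhlhe40 was 1.68-fold lower (limma adjusted p = 0.00549).

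Retinoic acid is an input to COUP-TF genes, and 3 enzymes of its metabolism were higher in intraabdominal stromo-vascular cells. Of 14 tested retinoid and hedgehog genes (20 of 26 on the array) 3 were higher and 2 lower, with a median of 0.072. The 5 calls are 35.7% of the list, against 12.9% of all probe sets. Aldh1a3 was 20.5-fold higher (limma adjusted p = 2.46e-06), and it too passed the filter on dim signals only through this group. Aldh1a1, which also makes retinoic acid, was 2.07-fold (limma adjusted p = 6.21e-05) and Dhrs3, which turns retinal back to retinol, 2.02-fold higher (limma adjusted p = 0.000282). Lower were Rbp4, the carrier of retinol (3.98-fold, limma adjusted p = 8.11e-08), and Gas1, a hedgehog co-receptor (2.10-fold, limma adjusted p = 0.0127). In adipocytes Aldh1a1 alone was called, at 17238 ± 687 in intraabdominal and 8658 ± 1709 in subcutaneous cells (2.01-fold, limma adjusted p = 0.00035), and the median was -0.183. This 1 call is 7.14% of the list, near the 8.13% of all probe sets. Another Aldh1a1 probe set pointed the other way in both fractions and was not called.

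Among genes reported as COUP-TF targets in vessels and fat, calls went both ways. Of 13 tested (20 of 26 on the array) 4 were higher in intraabdominal stromo-vascular cells and 1 lower, with a median of -0.195. The 5 calls are 38.5% of the list, against 12.9% of all probe sets. Efnb2, the artery ligand ephrin-B2, averaged 3839 ± 561 in intraabdominal and 1050.25 ± 175 in subcutaneous cells (3.56-fold, limma adjusted p = 8.19e-05). The co-receptor Nrp1 was 2.67-fold (limma adjusted p = 0.00148) and the factor Gata2, a brake on fat cell formation, 2.39-fold higher (limma adjusted p = 0.000459). Vegfc, a growth factor of lymphatic vessels, was 2.21-fold higher (limma adjusted p = 0.0299), and the lower one was Pparg. Efnb2 and Nrp1 are genes that NR2F2 is known to hold down in veins. In adipocytes the sole call was Gata2, 1.64-fold lower (limma adjusted p = 0.0401), which was lost in 11 of the 12 fits without 1 array (up to limma adjusted p = 0.154). This 1 call is 7.69% of the list, near the 8.13% of all probe sets. Between fractions 5 of the 13 were higher and 5 lower in stromo-vascular cells, among them Cebpa (14.7-fold lower, limma adjusted p = 4.65e-15), a driver of fat cell formation, and Vegfc (28.3-fold higher, limma adjusted p = 1.15e-10). These 10 calls are 76.9% of the list, against 62.4% of all probe sets.

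Regulators of the body cavity lining and gonadal mesoderm, where Tcf21 is active in the embryo, gave 3 higher and 0 lower among 7 tested (15 of 26 on the array), with a median of -0.141 in stromo-vascular cells. These were Bnc1 (12.5-fold, limma adjusted p = 4.81e-05), Wt1 (5.48-fold, limma adjusted p = 0.000235) and Gata6 (2.14-fold, limma adjusted p = 0.000983). The 3 calls are 42.9% of the list, against 12.9% of all probe sets. Bnc1 passed the filter on dim signals only through intraabdominal stromo-vascular cells. Bnc1 and Wt1 are also on the mesothelial marker list given above, and 1 of 2 other Gata6 probe sets pointed the other way without a call. In adipocytes 0 of 7 were called, against 8.13% of all probe sets, with a median of -0.597. Wt1 read 194 ± 27.7 in intraabdominal and 229.9 ± 121 in subcutaneous adipocytes (limma adjusted p = 0.855).

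**Figure D5:**
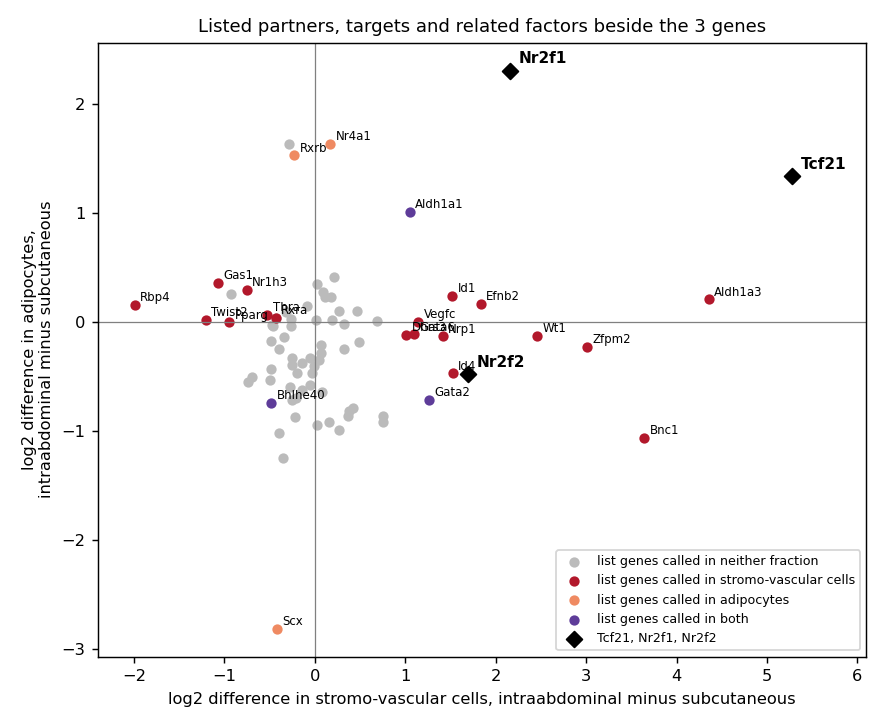
Each tested list gene by its log2 depot difference in stromo-vascular cells (x axis) and in adipocytes (y axis), intraabdominal minus subcutaneous, coloured by where it was called, with Tcf21, Nr2f1 and Nr2f2 as diamonds. Bnc1, Zfpm2, Wt1 and Aldh1a3 lie to the right near or under the line of no difference in adipocytes, and Tcf21, Nr2f1 and Aldh1a1 lie above it on the right.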

How the data were processed

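The authors deposited 1 MAS5 signal per probe set and array, a linear intensity; the MAS5 name comes per the submitters' processing notes, and no version or detection call was found for it (not given in the sources used here). Arrays had already been scaled (2% trimmed means within a ratio of 1.00017) and no 2 were identical (0 pairs); within a group Pearson's r was 0.924 to 0.976 and median signals ran from 423 to 558. Labels give 15 µg of RNA per array and no batch or scan date. From 12488 probe sets 66 controls were left out. Names came from the platform annotation, which can be old: 10833 probe sets had 1 symbol, 396 several and 1193 none.

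Signals became log2(signal + 40.09), the pseudocount being the 10th percentile of all values. The dimmest 30% by mean log2 signal were dropped. A model of 4 group means on all 12 arrays was fitted with limma 3.58.1 (intensity trend) in R 4.3.3, with p-values adjusted (Benjamini-Hochberg) over all 8695 tested, and a call is an adjusted p under 0.05. Differences are intraabdominal minus subcutaneous and stromo-vascular minus adipocyte. The number of arrays limits the precision.

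A planned test of the 3 genes between fractions is given as a description only, since they were picked on these arrays. The members, gene lists and marker lists were chosen with earlier results of these data known. Named are all members, up to 4 tested genes of a list with the smallest p in a contrast, and the 5 genes most like a member; where a gene has several probe sets, the brightest leads. Simulated data with 200 of 8695 genes changed gave back 50% of 2-fold and 86% of 4-fold changes in the depot contrast of stromo-vascular cells, with 2.16% false calls. For adipocytes these were 51%, 85% and 9.33%, and for the fraction average 81%, 96% and 4.32%. Alternatives changed the pseudocount, filter, normalization, arrays in the fit, replicate block, actin covariate, array weights and variance trend, or left out 1 array.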

Additional observations from a re-analysis of the deposited data

Results flagged for a closer look

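For 16 genes of the lists the depot difference in stromo-vascular cells and that in adipocytes themselves differed by test (interaction in limma, adjusted p under 0.05, 3 arrays per group), against 8.43% of all probe sets called. By list, 22.2% of the tested COUP-TF partners, 12.5% of the nuclear receptors and 14.3% of the bHLH dimer partners were called. So were 7.69% of the other bHLH factors and 28.6% of the retinoid and hedgehog genes. Of the COUP-TF targets 23.1% were called, and of the body cavity and gonadal regulators 42.9%. The lists were chosen with earlier results of these data known. Values are log2 differences of stromo-vascular cells minus adipocytes, so that a positive one means a more positive intraabdominal minus subcutaneous difference in stromo-vascular cells. Positive ones were those of Bnc1 (4.71, adjusted p = 0.000216), Aldh1a3 (4.15, 0.000206), Zfpm2 (3.24, 0.00211), Wt1 (2.58, 0.00455), Scx (2.395, 0.0419), Id4 (1.996, 0.00146), Gata2 (1.97, 0.000383), Efnb2 (1.67, 0.00509), Nrp1 (1.55, 0.0139), Gata6 (1.21, 0.00955) and Dhrs3 (1.13, 0.00328). Negative ones were those of Rbp4 (-2.15, 3.11e-06), Rxrb (-1.76, 0.0242), Nr4a1 (-1.46, 0.00153), Gas1 (-1.43, 0.0264) and Nr1h3 (-1.05, 0.0144). Bnc1, Aldh1a3 and Zfpm2 passed the filter on dim signals only through their signal in intraabdominal stromo-vascular cells. Leaving out 1 array ended the call of Scx in 8 of 12 cases, of Gas1 in 6 and of Rxrb in 4. The actin ratio as a covariate ended those of Efnb2 (adjusted p = 0.105), Gata6 (0.103), Nr1h3 (0.0539), Nrp1 (0.231), Rxrb (0.283), Scx (0.241) and Wt1 (0.0828). Mesothelial (5 of 6 tested) and smooth muscle markers (6 of 9) also had a positive interaction, as did macrophage markers in 5 of 10 (1 negative), whereas endothelial markers had a negative one in 3 of 9; their part in these values was not tested.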

How the results depend on the processing

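With the dimmer 50% of probe sets left out Tcf21 and Nr2f1 dropped out and have no value. Under the other alternatives run their depot differences kept their sign in both fractions. So did that of Nr2f2 in stromo-vascular cells. Its other probe set gave 0.15 there, -1.47 in adipocytes, 1.62 for the interaction, -0.23 between fractions on average, 0.58 in intraabdominal and -1.04 in subcutaneous fat. With the pseudocount at the 20th percentile the depot difference of Tcf21 in stromo-vascular cells was 4.69 and the interaction of Nr2f1 0.12. Quantile normalization gave a Tcf21 interaction of 3.55. With only the arrays compared 299 probe sets were called between depots in adipocytes (707 with all), and array weights gave 1952 calls in stromo-vascular cells (1125).

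The actin ratio as a covariate gave 97 calls between depots in adipocytes, 403 for the interaction and 1586 between fractions. Depot differences in adipocytes were then 2.15 (Tcf21), 2.93 (Nr2f1) and 0.38 (Nr2f2), and interactions 3.23 (Tcf21) and 1.41 (Nr2f2). The average fraction differences were 3.05 (Tcf21), 2.67 (Nr2f1) and 3.70 (Nr2f2). Fraction differences in intraabdominal fat were 4.66 (Tcf21), 2.32 (Nr2f1) and 4.41 (Nr2f2), and in subcutaneous fat 1.43 (Tcf21), 3.01 (Nr2f1) and 3.0 (Nr2f2). Signs turned for Rxra (0.0043), Tcf4 (0.43) and Tcf15 (0.090) between fractions. The cause of these shifts was not tested. Centring arrays on their medians moved the median of all differences in adipocytes to 0.15 and of the interaction to -0.13. It left 82.0% of 958 adipocyte calls higher in intraabdominal fat (51.2% as deposited) and 32.9% of interaction calls positive (46.2%).

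Leaving out 1 array gave 766 to 1263 depot calls in stromo-vascular cells, 367 to 958 in adipocytes (375 without intraabdominal adipocyte array 1, 367 without array 2), 536 to 819 for the interaction and 5144 to 5418 between fractions. Depot differences ran from 5.26 to 5.31 (Tcf21), 1.94 to 2.4 (Nr2f1) and 1.37 to 1.96 (Nr2f2) in stromo-vascular cells. In adipocytes they ran from 1.08 to 1.64 (Tcf21), 1.92 to 2.87 (Nr2f1) and -0.77 to -0.23 (Nr2f2). Interactions ran from 3.64 to 4.2 (Tcf21), -0.71 to 0.24 (Nr2f1; 0.10 and 0.04 were the other values above 0) and 1.84 to 2.46 (Nr2f2). Average fraction differences ran from 1.23 to 1.51 (Tcf21), 1.16 to 1.64 (Nr2f1) and 1.77 to 2.08 (Nr2f2). Within intraabdominal fat they ran from 3.13 to 3.55 (Tcf21), 1.15 to 1.39 (Nr2f1) and 2.88 to 3.16 (Nr2f2), and within subcutaneous fat from -0.87 to -0.31 (Tcf21), 1.04 to 1.99 (Nr2f1) and 0.54 to 1.15 (Nr2f2).

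The replicate numbers did not pair the arrays: over 18 pairs of arrays with the same number, deviations correlated at -0.0863 to 0.11, with 1 over 0.1. With the replicate number as a block 1054 probe sets were called between depots in stromo-vascular cells, 595 in adipocytes, 645 for the interaction and 5350 between fractions. Of 68 calls of list genes tried (at most 4 genes per list and contrast, so not every gene named), 38 held under each alternative that gave a value; some had none with the dimmer 50% left out.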
